A study of Mus musculus with 7 samples.

Results

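The expression of 37 genes of the postsynaptic side of the synapse and of synaptic adhesion was examined in the cerebral cortex of mice that lack the creatine transporter (CrT), the product of Slc6a8. The genes were taken by symbol from a list of postsynaptic density scaffolds, CaMKII subunits, spine regulators, neurexins, neuroligins and LRRTM proteins, a rule that uses no measured value, though the list was drawn up with earlier results of these data known. All 37 were found among the 24346 genes of the FPKM table, where FPKM are the fragments assigned to a gene per kilobase of exon, scaled to the mapped reads of the library. The comparison addresses the effect of losing creatine uptake on cortical transcripts. Bulk RNA was sequenced from 7 male mice on a C57BL/6J background at postnatal day 100, and each animal gave 1 library. The paper states that both genotypes came from shared litters, at least 3 per experiment. The 4 CrT-/y animals (numbered 0 to 3) carried a constitutive deletion of exons 5 to 7 of the X-linked Slc6a8, and the 3 CrT+/y animals (numbered 1 to 3) were wild type. No agent was given to either genotype.

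At an excitatory synapse the glutamate receptors are held in place by the postsynaptic density, a dense protein layer built in tiers. PSD-95 family proteins bind the receptors at the membrane, SAPAP proteins link them to the SHANK proteins beneath, and SHANKs reach the actin skeleton of the dendritic spine. Across the cleft, presynaptic neurexins bind postsynaptic neuroligins and LRRTM proteins, while CaMKII, a calcium-activated kinase that is among the most abundant proteins of the postsynaptic density, and the calcium-activated phosphatase calcineurin set synaptic strength in opposite directions. Gephyrin is the scaffold of inhibitory synapses, and neuroligin 2 is found there.

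Promoter sequence was available from RefSeq (GRCm38.p6) for 27 of the 37 genes, as 49 windows in all, and 3 of them are printed. Printed windows belong to Nlgn2 or to genes that passed the test as lower in CrT-/y animals. They had 1 start and lay almost wholly outside the GENCODE gene. Of the other genes that passed, Baiap2 and Kalrn had 1 start but windows further inside the gene. Shank1 and Shank2 had 0 windows, Dlg1 had 4 and Magi2 had 2. Shank3 belongs to the SHANK family, in which every gene was lower in CrT-/y animals, Lrrtm3 had the smallest adjusted p-value of the 37 genes, and Nlgn2 had the largest fitted difference in the opposite direction. Each window holds the 250 bases before the start of transcription, 5′ to 3′ on the strand of the gene, with any motif match in capitals. Starts are those of RefSeq: the GENCODE gene begins downstream of the Shank3 start, and the last 22 bases of the Lrrtm3 window lie inside the GENCODE gene. The windows lie at chr15:89499358-89499607 on the plus strand for Shank3, at chr10:64090256-64090505 on the minus strand for Lrrtm3 and at chr11:69837785-69838034 on the minus strand for Nlgn2.
Shank3: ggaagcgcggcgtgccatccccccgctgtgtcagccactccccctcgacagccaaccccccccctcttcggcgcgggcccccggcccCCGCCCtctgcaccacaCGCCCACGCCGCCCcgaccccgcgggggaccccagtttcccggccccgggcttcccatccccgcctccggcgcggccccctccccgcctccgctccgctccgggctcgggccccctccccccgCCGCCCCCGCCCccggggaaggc
Lrrtm3: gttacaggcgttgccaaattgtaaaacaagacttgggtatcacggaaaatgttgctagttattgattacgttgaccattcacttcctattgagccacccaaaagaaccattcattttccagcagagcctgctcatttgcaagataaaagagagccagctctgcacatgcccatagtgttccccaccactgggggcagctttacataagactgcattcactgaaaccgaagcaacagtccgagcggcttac
Nlgn2: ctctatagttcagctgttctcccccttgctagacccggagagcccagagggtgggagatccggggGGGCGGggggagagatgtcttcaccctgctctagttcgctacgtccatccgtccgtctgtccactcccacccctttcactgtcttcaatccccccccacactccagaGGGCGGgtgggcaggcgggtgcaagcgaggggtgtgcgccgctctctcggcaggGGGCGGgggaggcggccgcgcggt
The motifs searched on both strands were the GC box (GGGCGG), the cAMP response element (TGACGTCA), the early growth response site (GCGTGGGCG) and the TATA box (TATAAA). The Shank3 window is 82.4% G or C with 31 CpG pairs, and holds 4 GC boxes and 1 early growth response site, all on the opposite strand, with the last base of the early growth response site shared with a GC box. The Nlgn2 window is 67.6% G or C with 18 CpG pairs and 3 GC boxes, and the Lrrtm3 window is 46.0% G or C with 6 CpG pairs and none of the 4 motifs. The GC box stood in 21 of the 49 windows of the 37 genes (42.9%) and in 32.7% of the 32851 windows of all genes. The early growth response site stood in 1 of the 49 windows and in 0.536% of all windows, the TATA box in 4 (8.16%) and in 12.4%, and the cAMP response element in 0 of the 49 and in 1.55% of all windows. These matches describe the letters of the windows only.

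The table gives no counts, so the depth of the libraries is not known from it. Depth relative to the deepest library, CrT-/y animal 2, was roughly estimated from the spacing of weakly expressed genes. CrT+/y animal 1 (0.697), CrT-/y animal 1 (0.717) and CrT+/y animal 2 (0.737) had the lowest estimates. These 3 were too close for this rough estimate to order. Between 17207 and 17821 genes were above 0 FPKM in an animal. Slc6a8 was at 12.4 to 15.7 FPKM in CrT-/y animals and at 28.0 to 32.3 FPKM in CrT+/y animals, so every library matched its label. The markers of cortical neurons were present at high levels, with the summed FPKM of 8 excitatory markers at 768 to 862 in CrT-/y and 759 to 928 in CrT+/y animals. One library stood apart for the genes reported here: CrT+/y animal 1 had the highest value of the 7 animals in 23 of the 37 genes and the lowest in 0. It also had the lowest summed FPKM of 8 striatal markers, at 119.8 against 210.1 to 503 in the other 6 animals. CrT+/y animal 2 had 395 summed FPKM of 6 ependymal and choroid plexus markers against 8.69 to 54.8 in the others. The 6 astrocyte markers summed to 605 to 671 FPKM in CrT-/y and 673 to 735 in CrT+/y animals, sums that narrowly did not overlap. Taken singly, all 6 astrocyte markers overlapped between genotypes. Fitted levels were lower in CrT-/y animals for 5 of them and higher for 1 (Gfap, by 0.34 on the log2 scale). The 4 olfactory bulb markers summed to 5.95 to 16.3 FPKM in CrT-/y and 2.91 to 5.24 in CrT+/y animals, also without overlap. Of the olfactory bulb markers 1 of the 2 that were tested was higher in CrT-/y animals. Of the excitatory markers 2 of 8 were lower in CrT-/y animals and 0 were higher, of the inhibitory markers 0 of 8 were lower and 2 higher, of the endothelial markers 2 of 5 were lower (Flt1 by 0.40 and Pecam1 by 0.31 on the log2 scale) and 0 higher, and of the 6 astrocyte and 8 striatal markers 0 passed the test in either direction. Over all tested genes 7.25% were called lower and 2.90% higher. The endothelial marker Slco1a4 went the other way from Flt1 and Pecam1, with a fitted level 0.15 higher on the log2 scale. It was at 15.1 to 16.5 FPKM in CrT-/y and at 13.5 to 14.7 FPKM in CrT+/y animals, without overlap, but did not pass the test. The 5 endothelial markers summed to 59.1 to 74.9 FPKM in CrT-/y and 71.8 to 83.6 FPKM in CrT+/y animals, which overlap. The part of these differences in the results was not tested.

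All 37 genes were expressed above the median tested gene. Their mean over the 7 animals spanned a 53.6-fold range, with a median of 62.0 FPKM against 11.1 FPKM over the 12988 genes tested, those averaging 1 FPKM or more. Camk2a was the most abundant at 872 FPKM, above 99.9% of tested genes, followed by the calcineurin subunit Ppp3ca (384 FPKM), the spine phosphatase anchor Ppp1r9b (253 FPKM), Dlg4 (248 FPKM) and Camk2b (243 FPKM). From Ppp1r9b to Camk2b the means differed by less than the spread between animals. At the lower end stood Lrrc7 (18.0 FPKM), Lrrtm4 (16.3 FPKM) and Lrrtm3 (16.3 FPKM), still above 61.6% of tested genes. The transcripts of these genes were long, with a median of 5060 bases against 3087 over the tested genes, and 33 of the 37 were longer than that median.

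**Figure D1:**
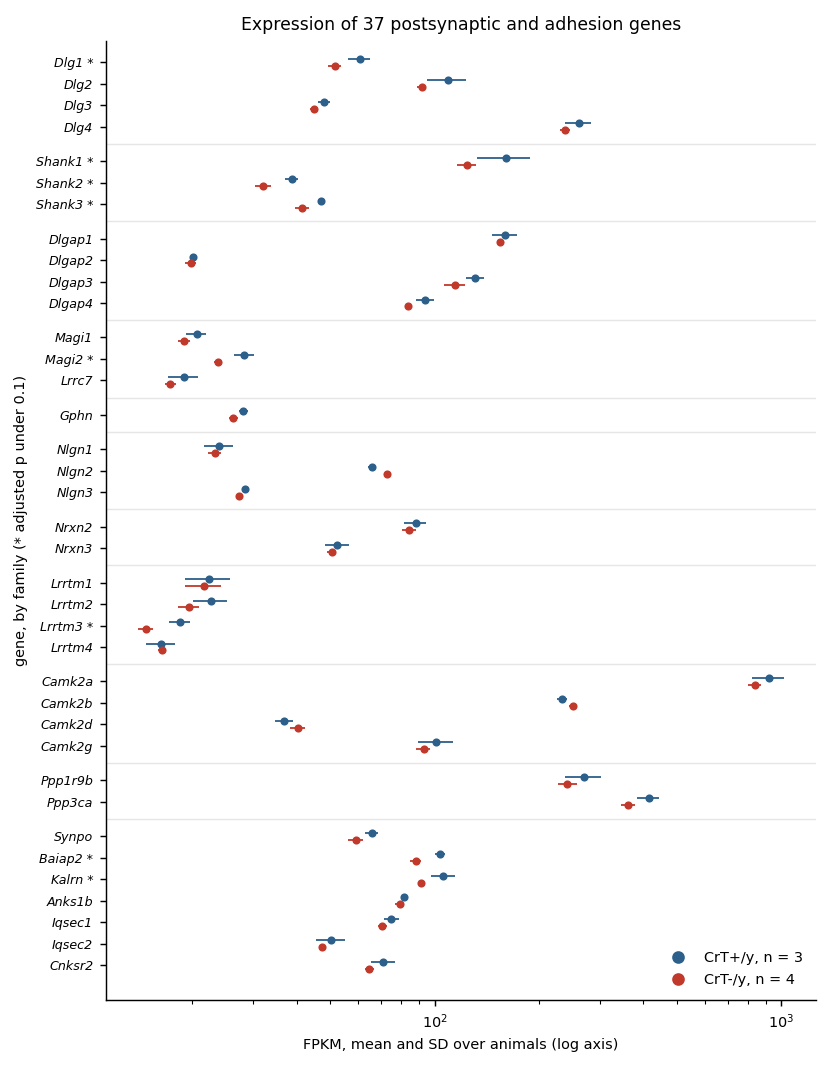
Mean FPKM (log axis) with SD for each of the 37 genes, grouped by family, in CrT+/y (blue, 3 animals) and CrT-/y (red, 4 animals). Camk2a stands at the top of the scale at a mean of 872 FPKM and Lrrtm3 at its foot at 16.3, and the distance between genotypes is small beside the distance between genes.

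The comparison of genotypes asked which of these genes change when the transporter is lost. With limma on log2(FPKM + 0.1), 8 of the 37 genes were lower in CrT-/y animals at an adjusted p-value under 0.1 over all tested genes, and 0 were higher. These were the scaffolds Dlg1, Shank1, Shank2, Shank3 and Magi2, the adhesion gene Lrrtm3 and the spine regulators Baiap2 and Kalrn, with fitted levels between 0.18 and 0.36 lower on the log2 scale. Over all tested genes 7.25% were called lower and 2.90% higher, against 21.6% of the 37 genes called lower. All tested genes include many of low level. In a fit of the 9498 genes averaging 5 FPKM or more, 11.1% were called lower. The same 8 of the 37 genes were lower in that fit, and 1 was higher. Without adjustment 15 of the 37 genes had a p-value under 0.05, as did 3252 of the 12988 tested genes. Fitted levels were lower for 33 of the 37 genes and for 58.2% of the tested genes, with a median log2 fold change of -0.13 against -0.033 over the tested genes. The genotypes did not overlap in 12 genes with CrT-/y lower and in 2 with CrT-/y higher (Nlgn2 and Camk2b), where 15.0% and 6.57% of all tested genes did not overlap in those directions. In bulk cortex, fewer neurons that express a gene and less RNA of it per neuron cannot be told apart.

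The calls changed with the animals in the fit. Leaving out CrT-/y animal 1, 2 or 3 or CrT+/y animal 1 left 0 of the 37 genes called with limma. The loss was general: in these 4 fits 0.408%, 1.28%, 1.96% and 1.29% of all genes tested were called lower. Unadjusted p-values under 0.05 stood in 11 to 15 of the 37 genes in these fits. With all animals they stood in 3252 of the 12988 tested genes. The matching share of all genes was not taken in the 4 fits, so this count is not a result about the 37 genes. Without CrT-/y animal 0 there were 3 of the 37 called lower (3.47% of all genes tested), without CrT+/y animal 2 there were 5 (3.92%), and without CrT+/y animal 3 there were 14 lower (18.4%) and 1 higher. The fitted direction of the 8 genes was lower in all of the 19 other settings, and for all 8 the lowest CrT+/y animal lay above the highest CrT-/y animal. The 8 genes were picked by p-value from the same animals, which favours both, so neither is separate support. The split between lower and higher calls depended on how the animals were scaled, with 3 lower and 1 higher after quantile normalization, 4 and 1 after median centring, 4 and 2 after upper quartile scaling and 4 and 3 after removal of each animal's trend with transcript length, where the median of the 37 genes was -0.070 and that of the tested genes 0.0014. In the same settings 4.27%, 4.06%, 3.56% and 5.14% of all tested genes were called lower. Over all tested genes the share of calls that were higher moved in these settings from 28.6% to 48.8%, 48.2%, 61.5% and 46.3%.

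**Figure D2:**
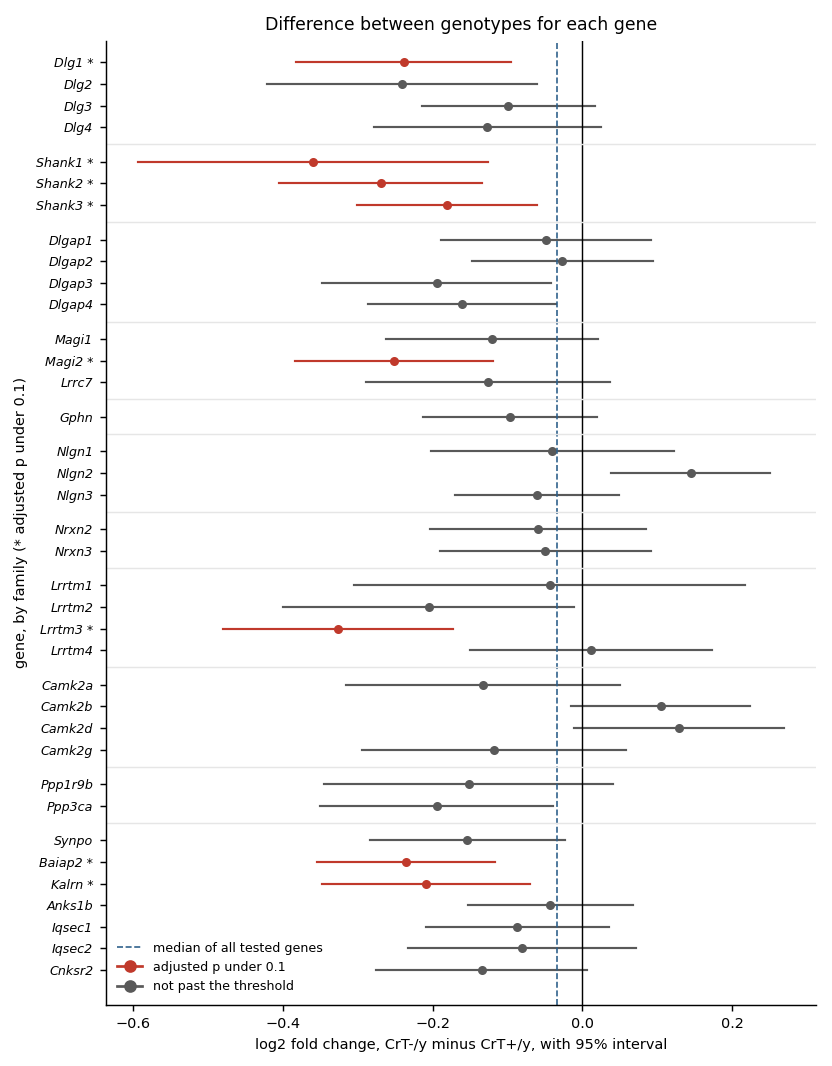
Log2 fold change of each gene (CrT-/y minus CrT+/y) with its 95% interval from limma, by family, red where the adjusted p-value was under 0.1. All 8 red intervals lie left of 0 and of the dashed median of all tested genes (-0.033), and Nlgn2 is the only gene whose interval lies wholly right of 0.

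The SHANK family was the only one of the 11 families in which every gene was called, at 3 of 3 lower. This did not hold in every setting. With each animal's trend with transcript length removed, none of the SHANK genes was called. The median transcript of the family was 8988 bases, against 3087 over the tested genes. SHANK proteins are the deep scaffolds of the postsynaptic density. Shank1 (chromosome 7, 44310253 to 44360572, mm10) was at 135, 117, 119.5 and 124 FPKM in CrT-/y animals 0 to 3 and at 192, 145 and 144 FPKM in CrT+/y animals 1 to 3. CrT+/y animal 1 lay far above the other animals, and the lowest CrT+/y animal was still above the highest CrT-/y animal. The fold change was -0.36 ± 0.10 (SE) on the log2 scale, the largest of the 37 genes, with an adjusted p-value of 0.084. Without CrT+/y animal 1 it was -0.22, smaller than that of Lrrtm3 (-0.31) in the same fit. Shank1 was called in 7 of the 19 other settings. Shank2 (chromosome 7, 144001928 to 144424494) was at 33.4, 29.8, 33.3 and 31.8 FPKM in CrT-/y and at 38.7, 36.9 and 40.3 FPKM in CrT+/y animals, without overlap and without an animal that stood apart. Its fold change was -0.27 ± 0.060 with an adjusted p-value of 0.050, and it was called in 11 of the 19 other settings. Shank3 (chromosome 15, 89499623 to 89560261), whose promoter is the richest in CpG pairs of the 3 printed above, was at 43.2, 42.0, 41.9 and 38.8 FPKM in CrT-/y and at 47.5, 46.6 and 46.8 FPKM in CrT+/y animals. The 3 CrT+/y animals lay within 1 FPKM of each other and above all CrT-/y animals. Its fold change was -0.18 ± 0.053 (adjusted p-value of 0.089), and it was called in 5 of the 19 other settings. Exons of Shank1 and Shank3 share 3.45% and 3.55% of their bases with a gene on the opposite strand, and whether the authors counted by strand is not given in the sources used here.

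PSD-95 family scaffolds, which bind glutamate receptors and adhesion proteins at the membrane, were fitted lower in all 4 genes and called in 1. Dlg1, which encodes SAP97 (chromosome 16, 31663443 to 31875129), was at 54.3, 52.1, 49.4 and 49.8 FPKM in CrT-/y and at 64.8, 61.3 and 56.1 FPKM in CrT+/y animals. The groups did not overlap, the fold change was -0.24 ± 0.064 and the adjusted p-value was 0.069. Dlg2 (PSD-93) had a fold change of -0.24 ± 0.080, or -0.14 without CrT+/y animal 1, and did not pass the test (adjusted p-value of 0.115). It was at 94.2, 88.5, 90.9 and 93.7 FPKM in CrT-/y and at 124, 107 and 96.5 FPKM in CrT+/y animals, with the CrT+/y animals spread over more than 4 times the range of the CrT-/y animals. Dlg4, the gene of PSD-95 and the most abundant of the family, was at 249, 236, 235 and 231 FPKM in CrT-/y and at 286, 244 and 252 FPKM in CrT+/y animals. CrT-/y animal 0 lay above CrT+/y animal 2, and the interval of the fold change, -0.28 to 0.024, included 0. Dlg3 (SAP102), the least abundant, was at 46.5, 43.9, 44.9 and 43.9 FPKM in CrT-/y and at 49.6, 46.1 and 48.3 FPKM in CrT+/y animals (interval -0.21 to 0.016).

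SAPAP proteins, the link between PSD-95 and SHANK, were fitted lower in 4 of 4 genes and called in 0. Dlgap4 (SAPAP4) did not overlap between genotypes, at 86.5, 82.8, 83.7 and 82.6 FPKM in CrT-/y and 101, 90.1 and 91.0 FPKM in CrT+/y animals, with a fold change of -0.16 ± 0.056 and an adjusted p-value of 0.125. Dlgap3 (SAPAP3) was at 114 ± 7.85 (SD, n = 4) and 131 ± 7.57 FPKM (n = 3), with a fold change of -0.19 ± 0.068 and an adjusted p-value of 0.127. Both missed the threshold while their intervals stayed below 0. Dlgap1, the most abundant SAPAP gene, was at 153, 155, 152 and 156 FPKM in CrT-/y and at 174, 148 and 157 FPKM in CrT+/y animals. Dlgap2, the least abundant, was at 20.1, 20.1, 20.0 and 18.7 FPKM in CrT-/y and at 20.7, 19.8 and 19.8 FPKM in CrT+/y animals. The 2 genes overlapped between genotypes, with intervals of -0.19 to 0.091 and -0.15 to 0.094, and their fitted direction turned under scaling alternatives such as upper quartile scaling (0.013 and 0.035).

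Among the MAGI and other PDZ scaffolds 1 of 3 genes was called. Magi2 (S-SCAM, chromosome 5, 19227036 to 20704792), a large scaffold that binds neuroligins, was at 23.0, 23.8, 23.6 and 24.2 FPKM in CrT-/y and at 29.3, 29.3 and 26.1 FPKM in CrT+/y animals. The CrT-/y animals lay close together and below all CrT+/y animals. The fold change was -0.25 ± 0.059 (adjusted p-value of 0.055), with 2.59% of its exon bases shared with another gene on the same strand. Magi1 was at 18.9 ± 0.746 FPKM (n = 4) and 20.6 ± 1.33 FPKM (n = 3) and did not pass the test. Lrrc7 (densin-180), which binds CaMKII, was at 17.2, 16.7, 18.1 and 17.2 FPKM in CrT-/y and at 17.9, 21.1 and 17.8 FPKM in CrT+/y animals, so that only CrT+/y animal 2 was apart from the rest. Gphn, the gephyrin gene, did not overlap between genotypes at 26.9, 26.9, 25.5 and 25.7 FPKM in CrT-/y and 28.5, 28.6 and 27.1 FPKM in CrT+/y animals, but its fold change of -0.097 ± 0.052 had an adjusted p-value of 0.268. The ratio of Dlg4 to Gphn, a scaffold of excitatory over one of inhibitory synapses, was 9.07 ± 0.222 in CrT-/y (n = 4) and 9.28 ± 0.763 in CrT+/y animals (n = 3). The log2 difference of -0.030 was not larger than the spread between animals (exact permutation test, two-sided, p = 0.686).

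The neuroligins, postsynaptic partners of the neurexins, differed among themselves in fitted direction, and 0 of 3 passed the test. Nlgn2 (chromosome 11, 69823122 to 69837784), a neuroligin of inhibitory synapses, was at 72.1, 74.3, 73.2 and 71.3 FPKM in CrT-/y and at 66.3, 64.0 and 67.0 FPKM in CrT+/y animals. Every CrT-/y animal was above every CrT+/y animal, by 0.14 ± 0.047 on the log2 scale, with an adjusted p-value of 0.109. It passed the threshold in 8 of the 19 other settings and was fitted higher in all 19. Nlgn1, a neuroligin of excitatory synapses and the least abundant of the 3, was at 21.9, 22.9, 23.8 and 24.1 FPKM in CrT-/y and at 26.2, 23.7 and 21.7 FPKM in CrT+/y animals. The CrT+/y animals spanned the whole range of the CrT-/y animals, and the interval was -0.20 to 0.12. Nlgn3 was at 27.3 ± 0.525 FPKM (n = 4) and 28.5 ± 0.669 FPKM (n = 3), a value that is uncertain because 44.6% of its annotated exon bases are shared with another gene on the same strand. The ratio of Nlgn1 to Nlgn2 was 0.304, 0.308, 0.325 and 0.338 in CrT-/y and 0.395, 0.370 and 0.324 in CrT+/y animals. CrT+/y animal 3 lay inside the CrT-/y range, and the log2 difference of -0.18 did not pass the test (exact permutation test, two-sided, p = 0.143, adjusted over 3 ratios 0.214).

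The presynaptic neurexins overlapped between genotypes, and 0 of 2 passed the test. Nrxn2 was at 87.2, 82.3, 80.3 and 87.9 FPKM in CrT-/y and at 95.6, 84.0 and 84.6 FPKM in CrT+/y animals, with an interval of the log2 fold change of -0.20 to 0.085. Nrxn3 was at 51.7, 52.0, 49.0 and 49.5 FPKM in CrT-/y and at 55.0, 54.4 and 47.8 FPKM in CrT+/y animals (interval -0.19 to 0.091). In Nrxn2 the highest value was that of CrT+/y animal 1, and in Nrxn3 the lowest was that of CrT+/y animal 3.

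LRRTM proteins, single-pass adhesion proteins that bind neurexins at excitatory synapses, were called in 1 of 4 genes. Lrrtm3 (chromosome 10, 63928472 to 64090277) was at 15.7, 14.1, 14.3 and 14.6 FPKM in CrT-/y and at 18.8, 17.0 and 19.5 FPKM in CrT+/y animals. No CrT-/y animal reached the lowest CrT+/y animal, and the mean in CrT-/y was 79.6% of that in CrT+/y animals. The fold change was -0.33 ± 0.068 and the adjusted p-value of 0.042 was the smallest of the 37 genes, and Lrrtm3 was called in 13 of the 19 other settings, more than any of the other 36 genes. Lrrtm2 had a fold change of -0.21 ± 0.086 with an adjusted p-value of 0.182. Lrrtm1, the most abundant of the family, varied widely within both genotypes, at 23.0, 20.5, 24.4 and 18.6 FPKM in CrT-/y and 19.4, 21.6 and 25.9 FPKM in CrT+/y animals. Lrrtm4 was at 16.4 ± 0.404 FPKM (n = 4) and 16.3 ± 1.56 FPKM (n = 3), with 26.0% of its exon bases shared with a gene on the opposite strand. Members of 1 adhesion family thus ranged from -0.33 to 0.011 in fold change, and the difference between the members was not tested.

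CaMKII is a holoenzyme built from alpha, beta, delta and gamma subunits, of which alpha and beta are the main forms in forebrain neurons. None of the 4 subunit genes was called with limma, and 0 had an unadjusted p-value under 0.05. Camk2a was at 863, 822, 794 and 866 FPKM in CrT-/y and at 1030, 843 and 888 FPKM in CrT+/y animals. Camk2b was at 251, 260, 244 and 248 FPKM in CrT-/y and at 239.7, 236 and 224 FPKM in CrT+/y animals. Camk2d was at 43.3, 39.8, 38.6 and 39.2 FPKM in CrT-/y and at 36.7, 39.0 and 34.7 FPKM in CrT+/y animals. CrT+/y animal 1 was the highest for Camk2a while every CrT-/y animal was above every CrT+/y animal for Camk2b, and in Camk2d only CrT+/y animal 2 overlapped the CrT-/y animals. The fold changes were -0.13 ± 0.081 for Camk2a, 0.10 ± 0.053 for Camk2b, 0.13 ± 0.062 for Camk2d and -0.12 ± 0.078 for Camk2g, whose levels were 92.9 ± 4.31 FPKM (n = 4) and 101 ± 11.5 FPKM (n = 3). Camk2b passed the threshold in 2 and Camk2d in 1 of the 19 other settings.

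The ratio of Camk2a to Camk2b, which does not change with the scaling of an animal, was 3.44, 3.16, 3.26 and 3.49 in CrT-/y animals 0 to 3 and 4.30, 3.57 and 3.96 in CrT+/y animals 1 to 3. All CrT-/y animals were below all CrT+/y animals. The log2 difference was -0.24, and the p-value of 0.029 is the smallest that 4 against 3 animals allow in the exact permutation test (two-sided, 35 arrangements), or 0.086 after adjustment over the 3 ratios. The difference was -0.17 without CrT+/y animal 1. With 1 animal left out the smallest p-value the exact test allows is 0.067 or 0.10, and the adjusted p-value was 0.10 to 0.30.

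**Figure D3:**
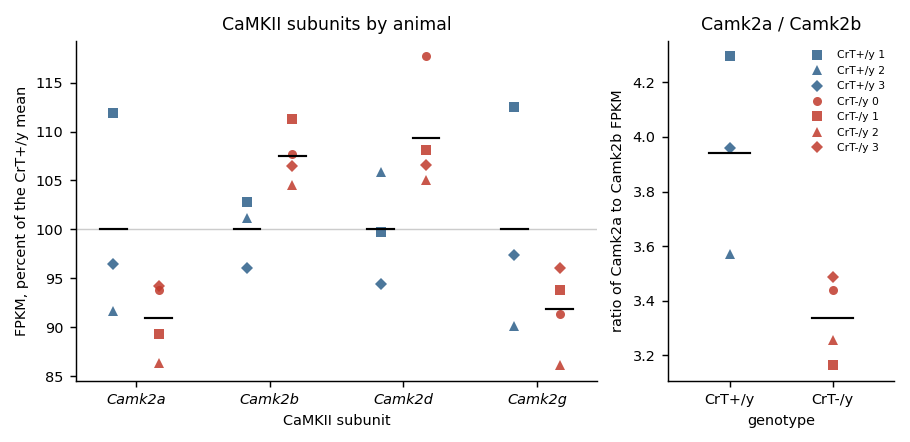
Left, FPKM of the 4 CaMKII subunit genes in each animal as a percentage of the CrT+/y mean, with CrT+/y in blue and CrT-/y in red, 1 marker shape per animal number and black bars at the means. Right, the ratio of Camk2a to Camk2b FPKM, at 3.16 to 3.49 in the 4 CrT-/y animals and 3.57 to 4.30 in the 3 CrT+/y animals; neither axis starts at 0.

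Neither of the 2 phosphatase-linked genes was called. Ppp3ca, the catalytic A alpha subunit of calcineurin, was at 379, 372, 355 and 339 FPKM in CrT-/y and at 447, 407 and 387 FPKM in CrT+/y animals. The genotypes did not overlap and the fold change was -0.19 ± 0.069, with an adjusted p-value of 0.131. Ppp1r9b (spinophilin), which anchors protein phosphatase 1 in spines, was at 256, 238, 222 and 251 FPKM in CrT-/y and at 306, 251 and 249.8 FPKM in CrT+/y animals. Here CrT+/y animal 1 lay above all others, and the other two CrT+/y animals lay within the CrT-/y range.

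Spine and signalling regulators were fitted lower in 7 of 7 genes and called in 2. Baiap2 (IRSp53, chromosome 11, 119942763 to 120006782), which joins membrane bending to actin, was at 89.0, 91.8, 84.2 and 87.5 FPKM in CrT-/y and at 106, 106 and 99.5 FPKM in CrT+/y animals. The gap between the groups was wider than the range of the CrT+/y animals, the fold change was -0.24 ± 0.053 with an adjusted p-value of 0.051, and the gene was called in 12 of the 19 other settings. Kalrn (chromosome 16, 33969073 to 34573532), which encodes kalirin, a regulator of spine shape, was at 89.7, 91.9, 92.4 and 91.9 FPKM in CrT-/y and at 112.7, 96.5 and 109 FPKM in CrT+/y animals. The CrT-/y animals lay within 3 FPKM of each other, the fold change was -0.21 ± 0.061 and the adjusted p-value was 0.089. Synpo (synaptopodin, of the spine apparatus) had a fold change of -0.15 ± 0.058 and an adjusted p-value of 0.147, and Cnksr2 one of -0.13 ± 0.062 and 0.216. Anks1b and the ARF exchange factor gene Iqsec1 had fold changes of -0.043 and -0.087 with intervals that included 0. Iqsec2, the least abundant of the group, was at 46.3, 46.9, 48.4 and 48.2 FPKM in CrT-/y and at 55.8, 46.2 and 49.1 FPKM in CrT+/y animals, with CrT+/y animal 1 apart from the rest.

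The spread between animals was smaller for these genes than for the table at large. All 37 genes lay above the median tested gene in level, and the comparison of spread was not matched for level. The median coefficient of variation of the 37 genes was 3.47% in CrT-/y and 7.14% in CrT+/y animals, against 5.82% and 9.27% over the tested genes, and it was larger in CrT+/y animals for 29 of the 37 and for 9240 of the 12988 tested genes, so the difference between genotypes in spread was shared with the table at large. CrT+/y animal 1 was above every CrT-/y animal in 31 of the 37 genes, and CrT+/y animals 2 and 3 in 21 each. As the median deviation from each gene's mean over the 7 animals, the 37 genes stood at 0.16 log2 units in CrT+/y animal 1, at 0.034 and 0.014 in CrT+/y animals 2 and 3 and between -0.072 and -0.029 in the CrT-/y animals. With CrT+/y animal 1 left out, 30 of the 37 genes were fitted lower, with a median of -0.083. Besides Shank1 and Dlg2, the fold changes of Dlg4 (-0.058), Magi1 (-0.068), Camk2a (-0.049), Camk2g (-0.030), Ppp1r9b (-0.055) and Cnksr2 (-0.085) were then more than 1.5 times closer to 0. So were those of Iqsec2 (-0.0049, from -0.081), Nrxn3 and Dlgap2. That of Lrrc7 was -0.046 without CrT+/y animal 2.

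**Figure D4:**
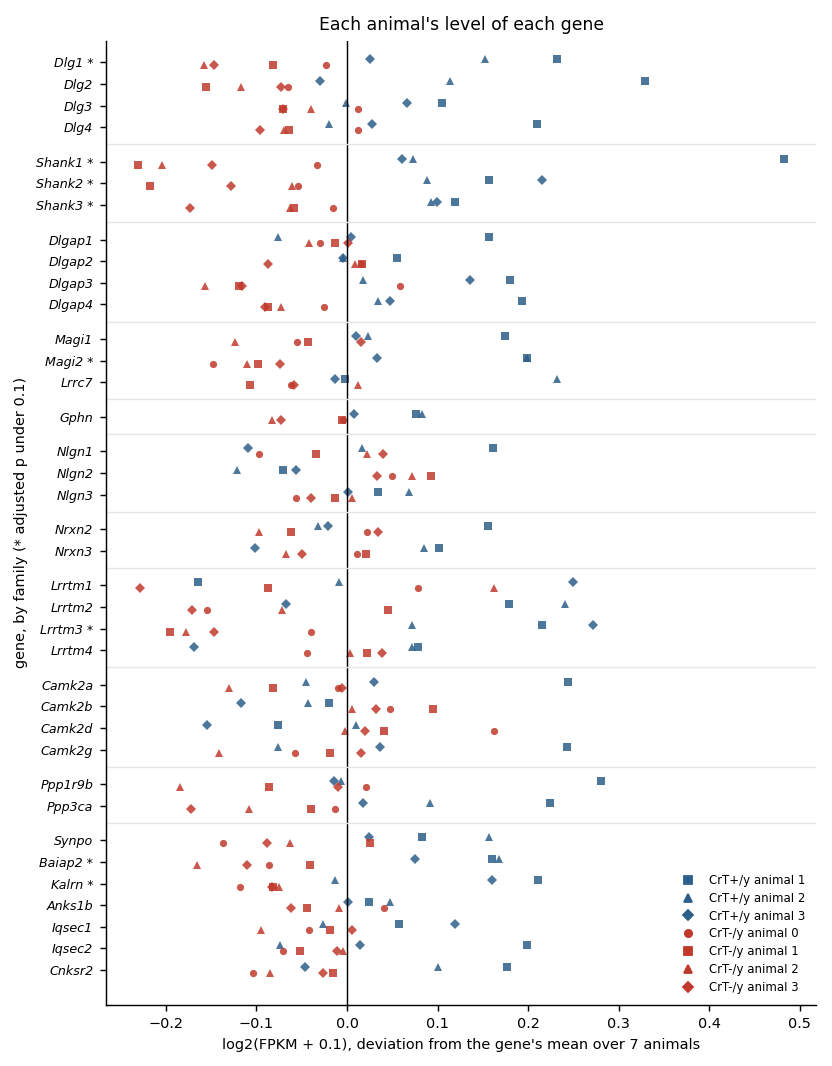
Deviation of each animal's log2(FPKM + 0.1) from the gene's mean over the 7 animals, for the 37 genes by family, CrT+/y in blue and CrT-/y in red, with 1 marker shape per animal number. The blue square of CrT+/y animal 1 is the rightmost point in 23 of the 37 genes, and in the 8 genes with an asterisk all blue points lie right of all red points.

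Other genes of the postsynaptic density, of synaptic adhesion and of CaMKII and calcineurin signalling were set beside these 37. The table lists 135 such genes, of which 133 were tested. Their median fold change was -0.076, and 15 were called lower and 2 higher. Set against 7.25% lower and 2.90% higher over all tested genes, among the other scaffolds and spine proteins 9 of 47 were lower and 0 higher, among the other adhesion genes 3 of 64 lower and 1 higher, and among the partners of CaMKII and calcineurin 3 of 22 lower and 1 higher. The share of the adhesion genes was thus not above that of all genes in either direction. The smallest p-value was that of Homer1, which encodes a scaffold that binds SHANK proteins, at 46.7, 44.5, 41.8 and 40.8 FPKM in CrT-/y and at 75.7, 82.3 and 58.5 FPKM in CrT+/y animals. All CrT+/y animals were above all CrT-/y animals, and the fold change of -0.72 ± 0.11 (adjusted p-value of 0.025) was larger in size than that of any of the 37 genes. The other scaffolds and spine proteins among the 10 smallest p-values were Git1 (-0.38 ± 0.068), Akap5 (-0.42 ± 0.082), which anchors calcineurin and protein kinase A, and Sipa1l1 (-0.39 ± 0.077), which encodes the spine protein SPAR. Of the adhesion genes they were Il1rap (-0.40 ± 0.077), the neurexin ligand Cbln2 (-0.33 ± 0.072) and Nfasc (-0.24 ± 0.054), all lower, and Efnb2 (0.26 ± 0.061), an ephrin, higher. Of the kinase and phosphatase partners they were the calcineurin regulator Rcan2, lower (-0.38 ± 0.073), and Ppp1r1a, an inhibitor of protein phosphatase 1, higher (0.27 ± 0.057). The count of lower genes fell from 15 to 1 without CrT-/y animal 1, to 3 without CrT-/y animal 2, to 7 without CrT-/y animal 0 or 3 and to 4 without CrT+/y animal 1, and was 29 without CrT+/y animal 3. The share of all genes tested called lower moved too, from 7.25% to 0.408% and 1.28% without CrT-/y animals 1 and 2. It was 3.47% and 1.96% without CrT-/y animals 0 and 3, and 1.29% and 18.4% without CrT+/y animals 1 and 3.

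**Figure D5:**
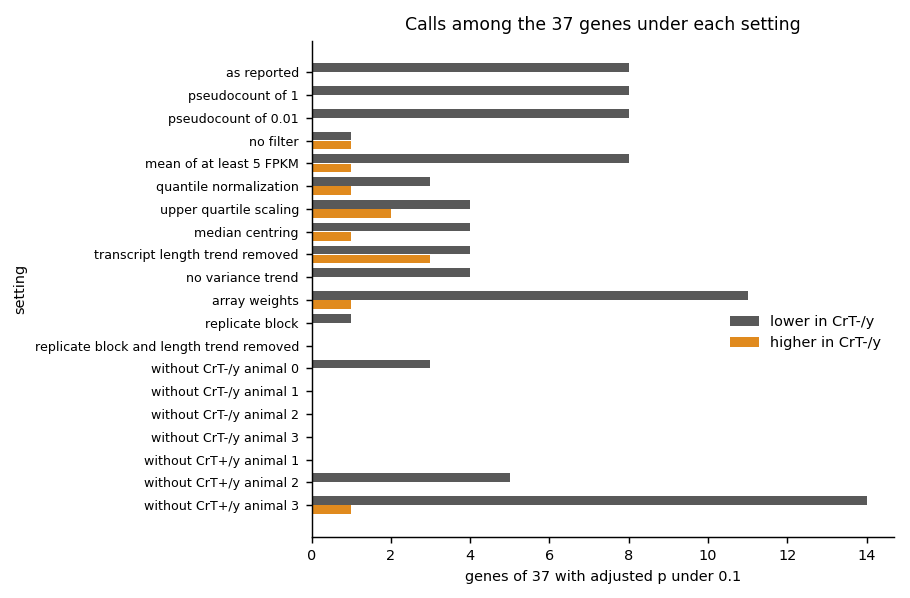
Number of the 37 genes called in each setting, lower (grey) and higher (orange) in CrT-/y animals. The count is 8 as reported, 0 in each of 4 settings that leave out 1 animal and 14 without CrT+/y animal 3.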

How the data were processed

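Cortical RNA of 7 mice was sequenced as paired-end reads of 150 bp. Following the Tuxedo protocol, the authors mapped reads to the mm10 assembly and its transcripts, kept unique alignments to known exons or junctions with at most 2 mismatches, and deposited FPKM per gene and animal (Bowtie and Cuffnorm are named in the submitters' processing notes). FPKM are not counts, so no count model was used. Genotypes and numbers were taken from the labels. Levels were tested as log2(FPKM + 0.1) in genes averaging 1 FPKM or more, with limma 3.58.1 in R 4.3.3 (genotype, variance trend) and Benjamini-Hochberg adjustment over 12988 genes; fold changes of low genes are understated. Replicates are separate animals. Ratios within an animal were tested by exact permutation over 35 arrangements. Positions and transcript lengths are from GENCODE M21 (GRCm38). The fit was tested on simulated data. The members and the lists were chosen with earlier results of these data known. Animal values are given for genes with an adjusted p-value under 0.1, genes without overlap and the most and least abundant gene of each of 11 families, and, of the other 135 genes, the 10 called with the smallest p-values are named. Alternatives changed the pseudocount, filter, scaling, length trend, variance model, animal weights, replicate block or animals. Same-numbered animals did not deviate together (r of -0.078, 0.046 and -0.051).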

Additional observations from a re-analysis of the deposited data

Results flagged for a closer look

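Dlgap2 in CrT-/y animal 3 was at 18.7 FPKM while the other 3 CrT-/y animals were between 20.0 and 20.1 FPKM, a gap of 0.932 of the range of the group, above the critical value of Dixon's test for 4 samples. It was the only value of 40 tested in this way that stood apart, where chance gives about 1 in 20 groups (5%). The fold change of Dlgap2 did not pass the test with this animal in the fit or without it.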

How the results depend on the processing

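The 8 genes called lower stayed 8 with a pseudocount of 1 or 0.01, where 7.37% and 7.24% of all genes tested were called lower. They stayed 8 with a mean of at least 5 FPKM, where 1 was also called higher, and were 11 lower and 1 higher with array weights. There 11.1% and 9.97% of all genes tested were called lower. Without a filter there were 1 lower and 1 higher (3 and 1 of the other postsynaptic and adhesion genes, against 15 and 2 as reported), and without a variance trend 4 lower. The shares of all genes tested called lower were then 1.08% and 4.81%. After quantile normalization there were 3 lower and 1 higher (4 of the other genes higher), after upper quartile scaling 4 and 2 (9 and 7), after median centring 4 and 1 (9 lower) and with the length trend removed 4 and 3 (5 higher). In this order 4.27%, 3.56%, 4.06% and 5.14% of all genes tested were called lower. With 1 animal left out, the 37 genes had 0 to 14 called lower and 0 to 1 higher, and the other genes 1 to 29 lower and 0 to 8 higher. The share of all genes tested called lower then ranged from 0.408% to 18.4%. Those called higher ranged from 11 of 12981 to 1342 of 12997.

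With a replicate block on the animals numbered 1 to 3, 1 of the 37 genes was called lower (6 and 0 of the other genes), and with the block and the length trend removed 0 (5 and 1). The same 6 animals without the block gave 3 lower (7 lower), a fit added after the data were seen. In this order 3.20%, 1.76% and 3.47% of all genes tested were called lower. Animals with the same number did not deviate together, and the labels do not give litters. The log2 ratio of Camk2a to Camk2b was -0.25 under the block and -0.31 to -0.17 with 1 animal left out, where fewer arrangements were left to the test and no adjusted p-value was under 0.1, and that of Dlg4 to Gphn was -0.090 to 0.029, the latter without CrT+/y animal 1.

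Directions turned only in genes that did not pass the test. After quantile normalization the fold change was 0.021 for Dlgap2, 0.013 for Nlgn1, 0.0081 for Nlgn3, 0.016 for Nrxn2, 0.020 for Nrxn3, 0.0076 for Lrrtm1 and 0.019 for Anks1b. After upper quartile scaling it was 0.013 for Dlgap1, 0.035 for Dlgap2, 0.022 for Nlgn1, 0.0016 for Nlgn3, 0.0026 for Nrxn2, 0.012 for Nrxn3, 0.018 for Lrrtm1 and 0.019 for Anks1b, and after median centring 0.010 for Dlgap2. With the length trend removed it was 0.010 for Dlgap1, 0.022 for Dlgap2, 0.039 for Nlgn1, 0.0098 for Nlgn3, 0.0051 for Nrxn2, 0.019 for Nrxn3 and 0.0090 for Anks1b, and with the block in addition 0.013 for Dlgap1, 0.014 for Dlgap2, 0.066 for Nlgn1, 0.019 for Nlgn3 and 0.0077 for Nrxn3. With array weights it was 0.021 for Lrrtm1 and -0.026 for Lrrtm4. With 1 animal left out, Lrrtm1 ranged from -0.14 to 0.068 (0.026 without CrT-/y animal 3 and 0.068 without CrT+/y animal 3), Lrrtm4 from -0.071 to 0.053 (-0.00029 and -0.071 without the same animals), and, turning without CrT+/y animal 1, Dlgap1 from -0.10 to 0.015, Nlgn1 from -0.11 to 0.029 and Nrxn2 from -0.093 to 0.00098. The cause of these changes was not tested. With 7 animals and no counts in the table, counting error could not be separated from differences between animals.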
